A study of Mus musculus with 6 samples.

Results

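The genes of the centromere, the kinetochore and the spindle checkpoint were examined in mouse bone marrow-derived macrophages given the Hsp70 inhibitor JG-98. Members were taken by symbol: 20 genes whose name is Cenp followed by a single letter, and 25 further genes listed by name, all of which were on the array. Together they are 45 of the 25206 probe sets measured, with 1 probe set per member. Cenpc1, which encodes CENP-C, does not follow the name pattern and was counted among related genes.

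Expression was measured on 6 single-colour arrays of total RNA, 3 from untreated control macrophages and 3 from macrophages exposed to JG-98 for 16 hours at a labelled dose of 0.3 micromole, an amount without a volume. The comparison addresses the effect on macrophage transcripts of inhibiting Hsp70, a family of chaperones that hold unfolded proteins. Vehicle, strain, sex and age are not given in the sources used here, nor whether replicates came from separate animals or cultures. The p-values therefore cover the variation among these 6 arrays, part of which may be technical.

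A kinetochore is the protein assembly that joins each chromosome to the spindle during mitosis. It is built on centromeric chromatin marked by the histone CENP-A, through an inner network of CENP proteins, up to an outer layer that grips microtubules. Kinetochores without microtubules feed the spindle checkpoint, which holds back the anaphase-promoting complex until every chromosome is attached. Most of these genes are transcribed in cycling cells toward G2 and mitosis. Many such promoters carry CCAAT boxes, bound by NF-Y, and a cell cycle genes homology region (CHR), bound by the MuvB complex. Macrophages grown from marrow divide in response to their growth factor, so a culture holds cycling cells beside resting ones.

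Promoter windows are shown first, as a description of sequence. Several of them hold the same motifs, and any part of these motifs in the members' values was not tested. RefSeq entries of build GRCm38.p6 were available for 40 members, and Aurkb, Incenp, Ska1, Spc24 and Zwilch were not among them. Each printed window runs 5′ to 3′ on the gene's strand, from 115 bases before the annotated start to 50 bases after it. Capitals mark CCAAT and the CHR forms TTTGAA and TTCGAA, read on both strands, so that ATTGG and TTCAAA are marked too. The first 6 genes were picked by hand among members that had every JG-98 value below every control value and hold both motifs. They do not show how often the 2 features go together. Of the 23 members with separate groups and a window, 12 hold both motifs. Nuf2, the last, also had separate groups and holds neither.
Cenpa, chr5:30666771-30666935, plus strand: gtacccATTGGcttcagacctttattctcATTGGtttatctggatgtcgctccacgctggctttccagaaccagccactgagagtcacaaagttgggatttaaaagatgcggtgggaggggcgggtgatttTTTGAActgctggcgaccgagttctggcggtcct
Bub1b, chr2:118598096-118598260, plus strand: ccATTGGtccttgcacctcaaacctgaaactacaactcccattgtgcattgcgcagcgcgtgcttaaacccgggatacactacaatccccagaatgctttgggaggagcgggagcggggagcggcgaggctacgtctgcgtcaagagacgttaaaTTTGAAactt
Spc25, chr2:69206164-69206328, minus strand: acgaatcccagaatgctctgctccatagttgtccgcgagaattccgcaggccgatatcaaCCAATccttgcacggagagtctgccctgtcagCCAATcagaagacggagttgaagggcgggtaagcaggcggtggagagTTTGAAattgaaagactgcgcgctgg
Ttk, chr9:83834574-83834738, plus strand: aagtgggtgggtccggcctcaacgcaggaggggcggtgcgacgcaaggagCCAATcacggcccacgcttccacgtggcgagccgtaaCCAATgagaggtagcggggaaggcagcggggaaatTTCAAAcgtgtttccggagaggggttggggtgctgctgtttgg
Aurka, chr2:172370521-172370685, minus strand: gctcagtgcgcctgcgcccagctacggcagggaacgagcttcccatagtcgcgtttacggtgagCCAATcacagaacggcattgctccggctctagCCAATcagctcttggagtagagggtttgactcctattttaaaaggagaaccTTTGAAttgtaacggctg
Plk1, chr7:122159320-122159484, plus strand: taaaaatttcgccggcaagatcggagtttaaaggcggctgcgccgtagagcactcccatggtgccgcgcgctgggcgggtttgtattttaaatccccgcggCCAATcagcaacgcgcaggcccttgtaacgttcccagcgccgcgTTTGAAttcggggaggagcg
Nuf2, chr1:169531415-169531579, minus strand: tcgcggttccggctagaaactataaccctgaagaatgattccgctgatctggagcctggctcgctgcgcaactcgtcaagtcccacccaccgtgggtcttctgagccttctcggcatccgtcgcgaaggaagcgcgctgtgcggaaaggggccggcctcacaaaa

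In Aurka and Spc25 the pair of CCAAT boxes starts 32 bases apart, in Ttk 37 and in Cenpa 23 bases apart. The CHR begins 51 bases after the nearer CCAAT box in Aurka, 47 bases after it in Spc25, 44 in Plk1 and 35 in Ttk. In Cenpa and Bub1b, the members with the smallest p, the distance is longer, at 102 and 153 bases, so the spacing is not shared by all 6. Over the full windows of 300 bases (250 before and 50 after the start), a CHR of either form was found in 18 of the 40 members, and a CCAAT in 25. Both together stood in 15 members, which is 35.6% of their 45 promoter entries, against 7.52% of all 32851 entries in the table and 5.87% of the 8142 entries of genes with a mean of at least log2 6 on these arrays. Some members have overlapping entries, and a CHR can share letters with a reversed CCAAT, as in Cdca8. A CHR within 50 bases of the start, a distance chosen after the positions were seen, stood in 33.3% of the members' entries, 5.31% of all entries and 3.72% of those of the brighter genes. The E2F sites TTTCCCGC or TTTGGCGC, which can overlap, were found in 5 members, with 11.1% of entries against 1.56% of all and 3.21% of those of the brighter genes. A match describes letters only, and no binding was measured here.

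Transcripts of the members were lower with JG-98 by small amounts, and all 45 had a lower JG-98 mean. Over all probe sets a lower mean stood in 49.7%, and in 53.4% of the 8064 with a mean of at least log2 6. The median member differed by -0.16 on the log2 scale (JG-98 minus control), where the median of all probe sets was 0.00080. On the linear scale 21 members were less than 10% lower, 21 were 10 to 20% lower and 3 were lower by more than 20%, namely Cenpa, Cenpq and Ska2. In a bulk culture, fewer cycling cells and less RNA per cell cannot be told apart.

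No member passed an adjusted p of 0.05 in limma, which called 0.0397% of all probe sets, and 0.00793% in the lower direction. The smallest adjusted p was 0.24, for Cenpa, which ranked 98 of all probe sets by p. At an unadjusted p under 0.05 there were 18 members, all lower, which is 40.0% of them, against 4.48% of all probe sets and 7.68% of those with a mean of at least log2 6. That count was 10 after median centring of the arrays, 9 without control replicate 3, and 11 when control replicate 1 or JG-98 replicate 1 was left out. The shares of all probe sets with such a p and a lower value were then 3.57%, 3.42%, 3.33% and 3.40%, in that order. All JG-98 values lay below all control values in 27 members, or 60.0%, against 8.44% of all probe sets and 16.7% of the brighter ones. The opposite arrangement, with all JG-98 values above, occurred in 0 members.

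The call depended on how limma was fitted. With probe sets of a mean under log2 6 left out, 6 of the 39 remaining members fell at an adjusted p under 0.05, namely Cenpa, Bub1b, Spc24, Incenp, Ndc80 and Aurka, against 2.60% of the probe sets tested. With an intensity trend in the variance prior, Cenpa, Bub1b, Spc24 and Ndc80 fell, 4 of 45 against 0.504%.

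JG-98 replicate 3 stood apart from the other arrays. Its correlation with any other array was at most 0.9935, and each of the other 5 reached at least 0.9957 with some array. The members were lowest there in 33 of 45 cases, as were 38.1% of probe sets with a mean of at least log2 6. Relative to the mean of the controls, the members had a median of -0.16 on JG-98 replicate 1, -0.11 on JG-98 replicate 2 and -0.22 on JG-98 replicate 3. Over probe sets of a mean of at least log2 6 the same medians were 0.0067, 0.015 and -0.046. Without JG-98 replicate 3, the median member differed by -0.13 and 41 of 45 were lower, against 55.1% of all probe sets. Both remaining JG-98 values then lay below all controls in 27 members, against 16.7% of all probe sets, and 13 members had an unadjusted p under 0.05 with a lower value, against 6.24%. Among probe sets with a mean of at least log2 6, the shares without that array were 46.3% lower, 21.1% below all controls and 6.44% at such a p. The values of all members on all arrays are mapped by role in the heat map.

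**Figure D1:**
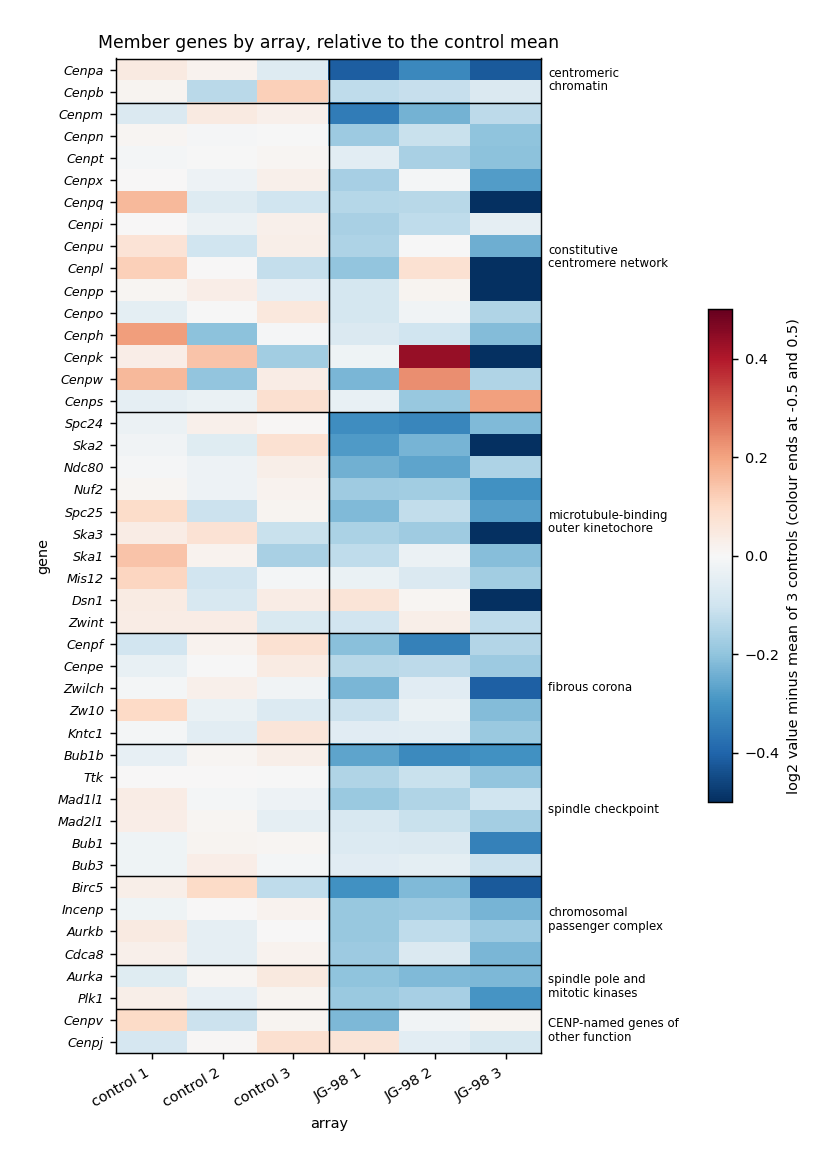
Heat map of the 45 members (rows, grouped by role) on the 6 arrays (columns); colour is the log2 value minus the mean of the 3 controls, and ends at -0.5 and 0.5. The JG-98 columns are blue in most rows of the outer kinetochore, checkpoint and passenger complex, and the darkest single cells, such as Cenpq and Dsn1, are on JG-98 replicate 3.

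Centromeric chromatin was represented by Cenpa and Cenpb. Cenpa encodes the histone H3 variant that marks the centromere. It read 8.48, 8.45 and 8.37 on the control arrays and 8.02, 8.11 and 8.01 on the JG-98 arrays, in log2 units. The groups were separated by 0.26, more than the spread within either, and the JG-98 mean was 23.4% lower on the linear scale. The log2 difference was -0.38 ± 0.068 (SE, n = 3 per group; limma adjusted p = 0.24). Cenpb, whose product binds a repeat motif in centromeric satellite DNA, differed by -0.10 ± 0.083, and its groups overlapped.

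The constitutive centromere network, the inner layer that stays on the centromere through the cell cycle, had 14 members, with a median difference of -0.14, and of -0.086 without JG-98 replicate 3. Of these, 5 had separate groups (Cenpm, Cenpn, Cenpt, Cenpq and Cenpi) and 2 an unadjusted p under 0.05. Cenpm read 6.92, 7.04 and 7.02 in controls and 6.65, 6.76 and 6.86 with JG-98, a difference of -0.24 ± 0.081 (limma adjusted p = 0.52). Its highest JG-98 value was that of JG-98 replicate 3, and it lay 0.059 below the lowest control. Cenpn, whose product binds the CENP-A nucleosome directly, read 8.14, 8.12 and 8.13 in controls and 7.95, 8.02 and 7.93 with JG-98. The control values had an SD of 0.0083 there, and the difference was -0.16 ± 0.062 (limma adjusted p = 0.55).

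Cenps, which also acts with Cenpx in DNA repair, was the member nearest 0. It read 5.73, 5.75 and 5.86 in controls and 5.74, 5.59 and 5.99 with JG-98. The groups overlapped fully, and the difference was -0.0060 with a 95% interval from -0.27 to 0.26, which does not show that the gene stayed level. Cenpt, which links the inner network to the NDC80 complex, was at -0.14 ± 0.068. Cenpw and Cenpk were at -0.049 ± 0.15 and -0.094 ± 0.27, and both read under 5 on every array. Without JG-98 replicate 3, Cenpw was at 0.0014.

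Several members of this layer owed much or all of their difference to a single array. Cenpq read 7.005, 6.78 and 6.74 in controls, 6.70 on both other JG-98 arrays, and 5.70 on JG-98 replicate 3. Its difference was -0.47 ± 0.27 with all arrays and -0.14 without that one. Cenpl moved from -0.24 to -0.061 without it, Cenpp from -0.22 to -0.036, and Cenpk from -0.094 to 0.21. Together with Dsn1 of the outer kinetochore, these 5 members were more than 0.5 lower on JG-98 replicate 3 than on the other JG-98 arrays, and all 5 had means under log2 7. Over all probe sets such a gap stood in 2.76%, and a gap of the same size upward in 5.77%. The cause was not tested.

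**Figure D2:**
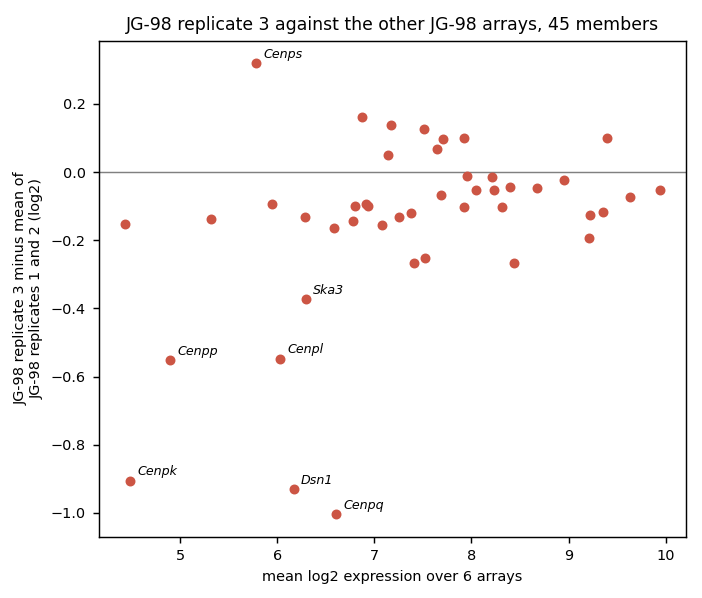
Each point is 1 of the 45 members; the horizontal axis is its mean log2 expression over 6 arrays and the vertical axis is JG-98 replicate 3 minus the mean of JG-98 replicates 1 and 2. Most members lie below 0, and 33 read lower on JG-98 replicate 3 than on both other JG-98 arrays. Cenpq, Dsn1, Cenpk, Cenpp and Cenpl lie under -0.5.

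The outer kinetochore, which holds the microtubule, had 10 members with a median difference of -0.22, of which 6 had separate groups and the same 6 an unadjusted p under 0.05. All 4 subunits of the NDC80 complex, the main microtubule coupler, were among them. Spc24 read 7.82, 7.87 and 7.86 in controls and 7.54, 7.52 and 7.63 with JG-98. The gap between the groups was 0.19, and the difference was -0.29 ± 0.065 (limma adjusted p = 0.35). Ndc80, Nuf2 and Spc25 were at -0.22 ± 0.065, -0.22 ± 0.068 and -0.21 ± 0.081.

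The SKA complex helps kinetochores stay on shortening microtubules. Ska2 read 7.67, 7.63 and 7.77 in controls and 7.41, 7.46 and 7.18 with JG-98, with its lowest value on JG-98 replicate 3. The difference was -0.34 ± 0.094 (limma adjusted p = 0.42), and -0.26 without that array. Ska3 was at -0.29 ± 0.12, and read 6.28, 6.26 and 5.90 with JG-98, the lowest on JG-98 replicate 3. Ska1 was at -0.12 ± 0.099, with overlapping groups. Without that array Ska3 was at -0.17 and Ska1 at -0.077.

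The remaining members of the outer layer had overlapping groups. Zwint, which binds the KNL1 scaffold, read 6.98, 6.98 and 6.87 in controls and 6.85, 6.97 and 6.82 with JG-98, a difference of -0.065 with a 95% interval from -0.24 to 0.11. Mis12 and Dsn1 encode subunits of the MIS12 complex, which joins the inner to the outer kinetochore. Mis12 was at -0.093 ± 0.081. Dsn1 was at -0.27 ± 0.25, and at 0.038 without JG-98 replicate 3. Without that array Zwint was at -0.033 and Mis12 at -0.053.

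The fibrous corona is the outermost layer, which forms before attachment and brings motors and the dynein adaptor to the kinetochore. Of its 5 members, 3 had separate groups and 2 an unadjusted p under 0.05. Cenpf, a large coiled-coil protein of G2 and mitosis, read 7.53, 7.64 and 7.70 in controls and 7.41, 7.28 and 7.48 with JG-98, a difference of -0.23 ± 0.083 (limma adjusted p = 0.52). Cenpe, the kinesin that carries chromosomes to the spindle equator, read 8.71, 8.75 and 8.79 in controls and 8.61, 8.62 and 8.57 with JG-98. Its difference of -0.15 ± 0.062 (limma adjusted p = 0.59) was smaller than that of Cenpf, but its JG-98 values varied less, with an SD of 0.028 against 0.098.

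Kntc1, Zw10 and Zwilch form the complex that recruits dynein. Kntc1 read 7.29, 7.25 and 7.36 in controls and 7.24, 7.25 and 7.11 with JG-98, so that control replicate 2 and JG-98 replicate 2 were level. The difference was -0.098 with a 95% interval from -0.27 to 0.075. Zw10 was at -0.12 ± 0.082, also with overlapping groups, and Zwilch at -0.23 ± 0.099 with separate ones. Without JG-98 replicate 3 all 3 were nearer 0, Kntc1 at -0.054, Zw10 at -0.071 and Zwilch at -0.14.

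In the spindle checkpoint, all 6 members had separate groups, at a median difference of -0.15, and 2 had an unadjusted p under 0.05. Bub1b encodes BubR1, the subunit of the mitotic checkpoint complex that holds the activator CDC20. It read 8.06, 8.12 and 8.13 in controls and 7.84, 7.78 and 7.80 with JG-98. The gap of 0.22 between groups exceeded the spread within them, the difference was -0.29 ± 0.062 (limma adjusted p = 0.30), and the JG-98 mean was 18.5% lower. Ttk, the MPS1 kinase that starts the signal, read 7.76 on all 3 control arrays and 7.61, 7.65 and 7.56 with JG-98, a difference of -0.15 ± 0.061 (limma adjusted p = 0.59).

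Bub3, the adaptor that brings BUB1 and BubR1 to the kinetochore, had the smallest difference of the checkpoint genes. It read 9.95, 10.01 and 9.96 in controls and 9.92, 9.93 and 9.87 with JG-98, a difference of -0.071 with a 95% interval from -0.22 to 0.075. Its groups were only 0.027 apart. Mad1l1 and Mad2l1, whose products form the template of the checkpoint signal, were at -0.15 ± 0.063 and -0.12 ± 0.064. The kinase gene Bub1 was at -0.16 ± 0.091, and at -0.071 without JG-98 replicate 3, on which it read 8.18 against 8.45 on both other JG-98 arrays.

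The chromosomal passenger complex corrects faulty attachments, through the kinase Aurora B and 3 partners that place it. All 4 members had separate groups, at a median difference of -0.18, and 3 had an unadjusted p under 0.05. Birc5, which encodes survivin, read 7.27, 7.34 and 7.11 in controls and 6.94, 7.02 and 6.82 with JG-98, a difference of -0.31 ± 0.090 (limma adjusted p = 0.43). Incenp, the scaffold, varied less, with 8.48, 8.50 and 8.51 in controls and 8.31, 8.31 and 8.27 with JG-98, a difference of -0.20 ± 0.060 (limma adjusted p = 0.46).

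Cdca8, which encodes borealin, had the smallest difference of the complex. It read 8.03, 7.96 and 8.02 in controls and 7.82, 7.93 and 7.78 with JG-98, a difference of -0.16 ± 0.071, with a gap of 0.027 between the groups. Aurkb itself was at -0.17 ± 0.064.

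Aurka and Plk1 encode kinases of spindle poles and mitotic entry. Aurka read 8.26, 8.33 and 8.37 in controls and 8.12, 8.10 and 8.09 with JG-98, and the JG-98 values had an SD of 0.012. Its difference was -0.22 ± 0.063 (limma adjusted p = 0.45), and that of Plk1 was -0.22 ± 0.068 with separate groups.

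Cenpv and Cenpj carry a CENP name without being part of the inner network, and Cenpj is best known for building centrioles. Cenpv read 7.31, 7.10 and 7.23 in controls and 6.99, 7.19 and 7.23 with JG-98, a difference of -0.076 ± 0.095. Cenpj was at -0.026 ± 0.078. The groups of both overlapped, and without JG-98 replicate 3 Cenpv was at -0.12 and Cenpj at 0.0048. The difference of every member is plotted by role with its standard error.

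**Figure D3:**
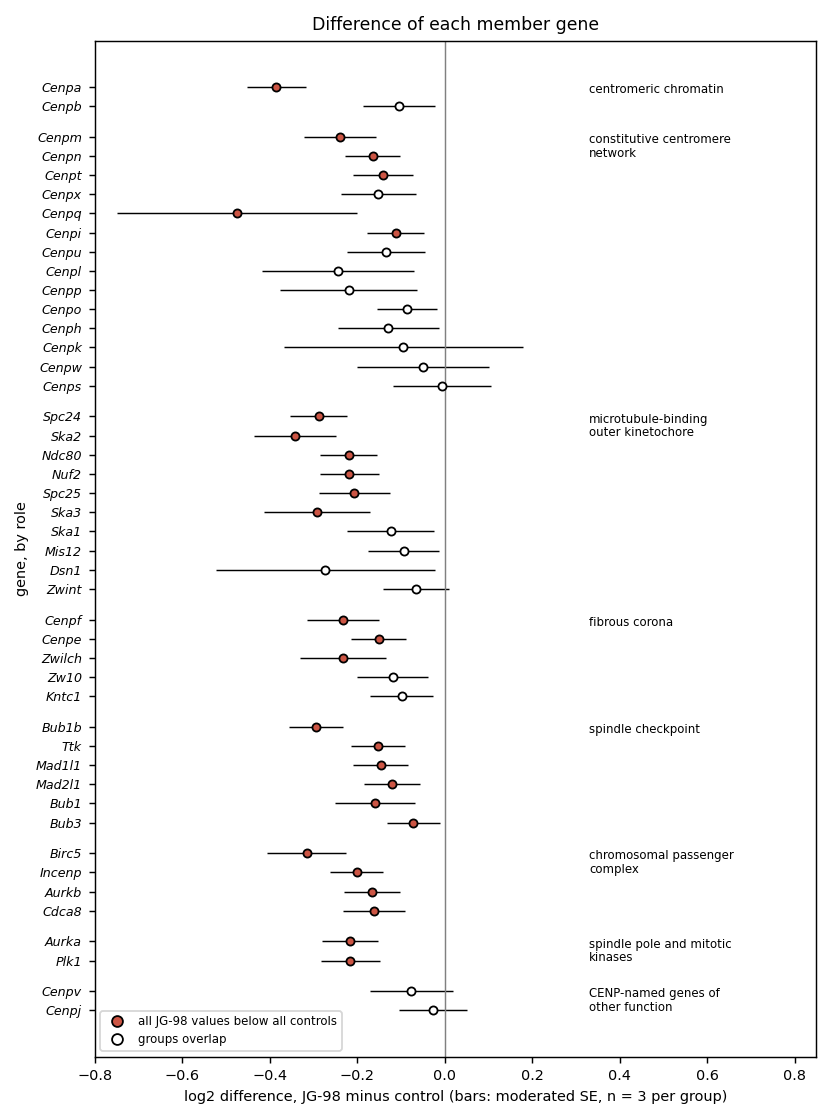
Log2 difference (JG-98 minus control) of each of the 45 members by role, with the moderated SE (n = 3 per group). Filled points have all JG-98 values below all controls, as in all 6 checkpoint genes and all 4 passenger complex genes; every point lies left of 0, and Cenps lies on it at this scale.

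**Figure D4:**
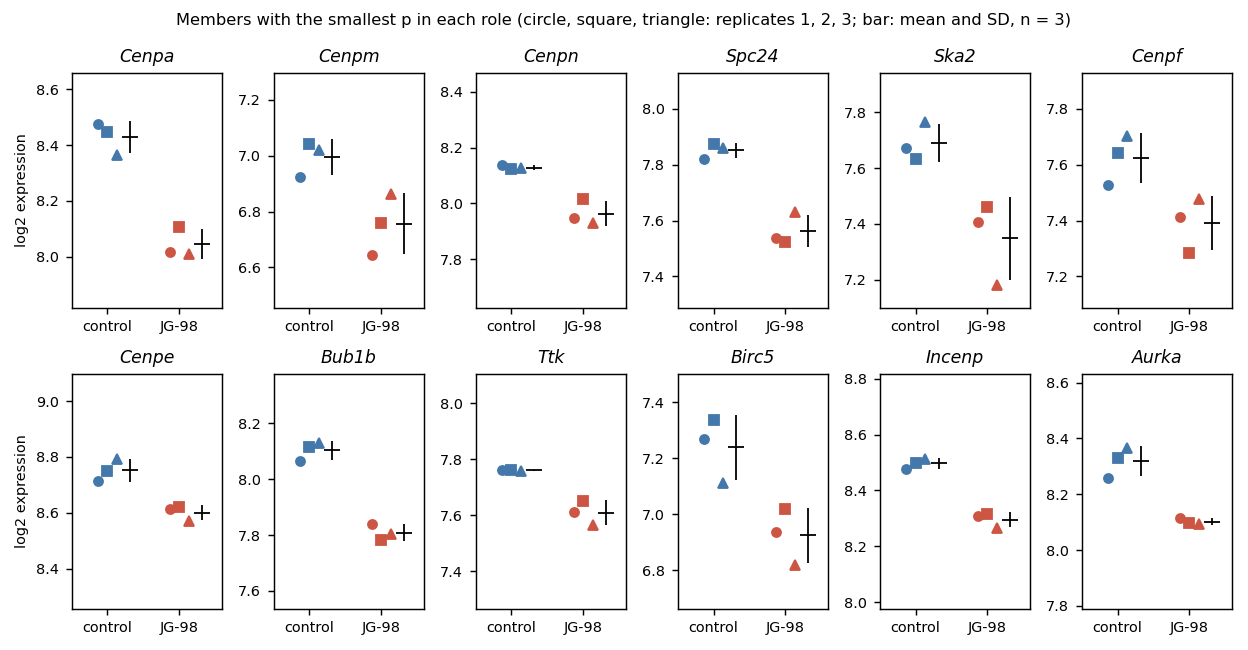
Log2 expression on each array for the 12 members with the smallest p in each role (the CENP-named genes of other function left out); symbols mark replicates 1, 2 and 3, and the bar is the mean and SD of 3 arrays. Each panel spans the same range of log2 units, and in all 12 the JG-98 points lie below the control points, with the widest gap in Cenpa. Choosing genes by p from these same values favours such separation, which 27 of all 45 members had.

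Motifs in the full promoter windows of 300 bases were also counted by whether a member's groups were separate or overlapped. That split was made from these same values. All 27 members with separate groups had means of at least log2 6, so it also follows signal level. A CHR of either form stood in 14 of the 23 members with separate groups for which a window was available, and in 4 of the 17 others. Both a CHR and a CCAAT stood in 12 of the 23 and 3 of the 17. The E2F sites stood in 1 of the 23 and 4 of the 17. Over all entries in the table, a CHR stood in 19.2%, both motifs in 7.52% and an E2F site in 1.56%. Among entries of genes with a mean of at least log2 6, the shares were 14%, 5.87% and 3.21%. These shares are per promoter entry, while a member was counted where any of its entries held the motif. Per entry, the shares of all members with a window were 42.2%, 35.6% and 11.1%. Cenps, Cenpv, Cenpj, Cenpb, Cenpo, Cenpp and Dsn1, whose groups overlapped, hold neither a CHR nor a CCAAT in these windows. Birc5, Cenpt, Mad1l1, Mad2l1 and Nuf2 also hold neither, and their groups were separate. These counts are descriptions without a test.

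Among 7 related lists, the mitotic kinesins had a median further below 0 than that of the members, and the other lists had medians nearer 0. For comparison, 49.7% of all probe sets had a lower mean, 8.44% had separate groups in that direction and 4.48% an unadjusted p under 0.05. Among probe sets with a mean of at least log2 6, these shares were 53.4%, 16.7% and 7.68%. Among the 17 other kinetochore subunits and CENP-A loading factors, 0 passed in limma and 16 had a lower mean, with a median of -0.15, 8 separate groups and 3 with an unadjusted p under 0.05. Without JG-98 replicate 3 that median was -0.095. Tpx2, which activates Aurora A, was at -0.20 ± 0.064, and Pmf1, a subunit of the MIS12 complex, at -0.22 ± 0.079. All 12 mitotic kinesins had a lower mean, at a median of -0.23, and of -0.21 without JG-98 replicate 3. Of these, 11 had separate groups and 9 an unadjusted p under 0.05, with Kif18b at -0.28 ± 0.065 and Kif4 at -0.26 ± 0.062. All 8 condensin subunits, which compact chromosomes, were lower too, at a median of -0.12. Of these, 2 had an unadjusted p under 0.05, Ncapd2 at -0.25 ± 0.063 and Ncapg2 at -0.22 ± 0.071.

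The anaphase-promoting complex, which the checkpoint restrains, was lower in 15 of 19 genes at a median of -0.088. Its mitotic activator Cdc20 was at -0.39 ± 0.073, and the core subunit gene Anapc13 at -0.15 ± 0.061. These were the 2 genes of that list with an unadjusted p under 0.05. They are 10.5% of it, near the 7.68% of probe sets with a mean of at least log2 6. Cohesin and its regulators were lower in 12 of 15 at a median of -0.077, and in 9 of 15 at a median of -0.026 without JG-98 replicate 3. Espl1, which encodes the protease separase, was at -0.22 ± 0.072, and Esco2, which acetylates cohesin, at -0.15 ± 0.062. Espl1 was the 1 gene with an unadjusted p under 0.05, or 6.67% of the list, also near that share.

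Of the 16 regulators of mitotic transcription, 10 had a lower mean, at a median of -0.016. Foxm1, a transcription factor of G2 and mitotic genes, was at -0.19 ± 0.072, and the pocket protein gene Rbl2 at -0.12 ± 0.065. The 31 DNA replication genes had a median of 0.019, with 13 lower and 18 higher. Cdt1, which licenses origins, was at 0.28 ± 0.085, and the helicase subunit gene Mcm7 at -0.17 ± 0.062. In limma 0 genes of any of these 7 lists passed an adjusted p of 0.05. The difference between the members and any of these lists was not tested.

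**Figure D5:**
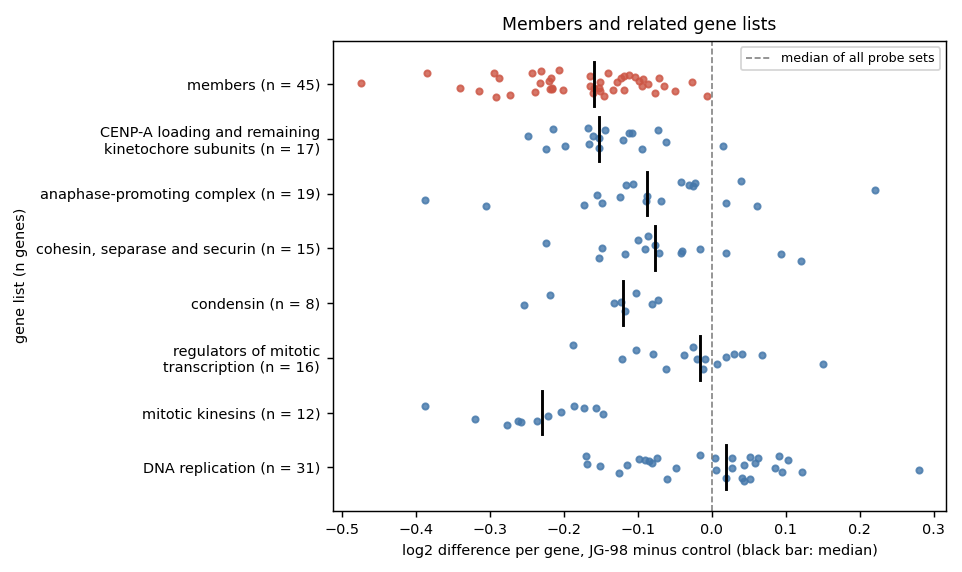
Log2 difference (JG-98 minus control) per gene for the members and 7 related lists, with the number of genes in each label; the black bar is the list's median and the dashed line the median of all probe sets, 0.00080. Members, mitotic kinesins and condensin lie wholly left of 0, while DNA replication genes lie on both sides.

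The labelled cell type carried its markers. Of 10 macrophage markers, 8 were measured, with means of 8.36 to 12.03, and their summed linear level was 12150 to 12340 in controls and 11530 to 12240 with JG-98. The sum rests mostly on the brightest genes. All JG-98 values lay below all controls in 3 of the 8, against 16.7% of probe sets with a mean of at least log2 6. C1qa, a complement subunit gene, differed by -0.24 ± 0.066 (limma adjusted p = 0.42), Mertk, a receptor for dying cells, by -0.22 ± 0.067 (limma adjusted p = 0.48) and Csf1r, the receptor for the macrophage growth factor, by -0.088 ± 0.061. The differences of C1qa and Mertk were larger than that of the median member. In Cd68, the brightest of the 8, all JG-98 values lay above all controls, at a difference of 0.061 ± 0.064. Among markers of other cells, 9 of 9 genes of myeloid progenitors, which divide, were measured, and 7 had means under log2 4. Their summed level was 273 to 297 in controls and 237 to 251 with JG-98. That sum turned on Cd34, which read 7.57, 7.47 and 7.64 in controls and 7.35, 7.25 and 7.13 with JG-98 (limma adjusted p = 0.41). Kit, Mpo, Elane, Prtn3, Ctsg, Flt3, Myb and Gata2 had overlapping groups. Neutrophil markers, 8 of 8 measured and 7 of them under log2 4, summed to 187 to 191 in controls and 164 to 186 with JG-98, though no single gene had separate groups. This sum turned mostly on Csf3r, which read 7.19, 7.11 and 7.08 in controls and 7.10, 7.08 and 6.81 with JG-98. Only 3 of the 8 neutrophil markers had a lower mean, and their median difference was 0.014. The sums of dendritic cell, B cell, T and NK cell, erythroid, mast cell, stromal and osteoclast markers overlapped between groups. No value on this scale was at 0, so absence cannot be read from it. The part of these genes in the members' differences was not tested.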

How the data were processed

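Total RNA of 6 samples was biotin-labelled with a whole-transcript kit according to the labels' protocols and hybridised to 1 array each. Log2 values per probe set, as deposited by the authors, were used. The submitters' processing notes list RMA, affy and R 2.15.1 with no roles. RMA, as generally defined, normalizes arrays against each other, so a shift of all genes would be removed, and it compresses differences of dim probe sets. Detection p-values were not used, and the number of arrays limits precision.

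Symbols came from the platform annotation by Entrez number (23185 of 25206 probe sets had 1, 0 of which changed through the RefSeq table of GRCm38.p6). Groups followed the labels. The test was two-sided limma (version 3.58.1, R 4.3.3; lmFit, eBayes, no covariate, 4 residual and 2.6 prior degrees of freedom), with Benjamini-Hochberg adjustment over all 25206 probe sets at 0.05. The fit was tested on simulated data with planted differences larger than that of any member, so that test does not cover differences of the members' size. Values per sample are given for the members of each role with the smallest p (2, or 1 in small roles) and the member nearest 0. In related lists, the 2 genes with the smallest p are named. Other members are given by their difference. Members and lists were chosen with earlier results of these data known. Promoter windows came from RefSeq. Replicate numbers are shared between groups, but deviations of same-numbered arrays correlated at 0.095, -0.13 and 0.10, so they were not taken as pairs.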

Additional observations from a re-analysis of the deposited data

How the results depend on the processing

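The median of the 45 members, or of the 39 left after the stricter filter, was negative under each setting tried: median centring, a further quantile normalization, leaving out probe sets under log2 4 or log2 6, a trend of variance with intensity, a robust prior, array weights, the replicate block and leaving out each array. The count past the adjusted threshold was 0, except for 6 with probe sets under log2 6 left out and 4 with the intensity trend, as given above. The number at an unadjusted p under 0.05 was 10 after median centring, against 18. Of all probe sets, 3.57% had such a p and a lower value after centring, against 4.48%. Leaving out 1 array at a time gave 9 to 17 members at such a p (9 without control replicate 3, 11 without control replicate 1 or JG-98 replicate 1). Of all probe sets, 3.19% to 6.24% then had such a p and a lower value. Separate groups stood in 27 to 35 members. That share over all probe sets also rose, from 8.44% with all arrays to between 11.9% and 16.7%. With 1 array left out, 0 members were past the adjusted threshold and the median was -0.20 to -0.13. With the replicate number as a block, 13 members had an unadjusted p under 0.05, against 3.84% of all probe sets with a lower value. In that fit 0 members passed (smallest limma adjusted p = 0.67), though no label says that the number pairs samples. Among the members named for the smallest p in their role or for lying nearest 0 in it, Cenps alone changed sign. It was at 0.014 under quantile normalization. With 1 array left out, Cenps was at 0.085 (JG-98 replicate 2), 0.034 (control replicate 3) and 0.0095 (JG-98 replicate 1), but at -0.11 without JG-98 replicate 3. Other members changed sign too, such as Cenpk, Dsn1, Cenpj and Cenpw, which were above 0 without JG-98 replicate 3. With array weights, 43 of 45 members were lower. Members with means under log2 6, which are 6 of 45, lie where RMA compresses differences.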
